A study of Mus musculus with 18 samples.

Results

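The genes of lipopolysaccharide (LPS) recognition were followed in microglia of the fetal mouse hippocampus. The list holds 10 genes, chosen by name for their known roles: the receptor complex (Tlr4, Cd14, Ly96), the adaptors (Myd88, Tirap, Ticam1), the signalling enzymes (Irak4, Traf6) and a pair of other Toll-like receptors (Tlr2, Tlr7). The choice was made with earlier results of these data known. For 9 of the 10, probe sets that name the gene alone were present, 19 in all, of 34945 such probe sets in the series. Irak4 is not analysed here. The 18 arrays form 4 groups, all of C57BL/6 background, at E17.5 and of unknown sex. The LPS group (4 arrays) came from wild-type embryos of dams inflamed with LPS, and the PBS group (4 arrays) from wild-type embryos of dams given PBS. The DAP12KO group (4 arrays) came from untreated DAP12-/- embryos, and the UT group (6 arrays) from untreated wild-type embryos. In all 4 groups hippocampi were pooled per dam, dissociated with trypsin and sorted for GFP driven from Cx3cr1, a gate that other brain macrophages also pass. LPS dose, serotype and interval to sampling do not stand in the labels. Each label ends in a year, written here with a Y before it: the LPS arrays divide into 1 of Y2008, 2 of Y2010 and 1 of Y2013, the PBS arrays likewise, the DAP12KO arrays are all of Y2013, and the UT arrays are 4 of Y2013 and 2 of Y2012. What the year marks is not stated in the labels.

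LPS, a component of the outer membrane of Gram-negative bacteria, is passed by CD14 to a complex of TLR4 with MD-2, the protein made from Ly96. TIRAP and MyD88 then carry the signal at the plasma membrane through IRAK4 and TRAF6 to NF-kB, while TRIF, the product of Ticam1, carries it from endosomes to type I interferon genes. TLR2 recognises bacterial lipoproteins at the cell surface and TLR7 single-stranded RNA in endosomes. In the brain, microglia and other macrophages are the main cells known to carry TLR4. DAP12, encoded by Tyrobp, is the signalling adaptor of several myeloid receptors, and its loss is known to alter Toll-like receptor responses of macrophages.

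The values are the deposited log2 expression values after RMA, and levels of different probe sets are not set against each other. A probe set was tested where its mean over the arrays reached log2 2.49, the 40th percentile of all probe sets, which also serves as the level called near the floor. The lowest value in the data is 2.19. The microglia markers gave a mean of 12.81 to 13.66 on LPS arrays, 11.79 to 13.63 on PBS arrays, 13.65 to 13.85 on DAP12KO arrays and 13.56 to 13.80 on UT arrays (15 of 15 tested genes above the threshold). The PBS arrays of Y2010 stood apart: their microglia marker means were 11.79 and 11.99, against 12.81 or more elsewhere, and their neuron marker means were 10.44 and 10.54, against 8.90 or less. Of 7 measured neutrophil genes, 5 (Camp, Ngp, Elane, Mpo, S100a9) had means near the floor, and S100a8 and Mmp9 had means of 2.54 and 2.64, just above it. The monocyte marker mean (5 tested genes) was 3.73 to 4.41 on LPS, 3.78 to 5.06 on PBS, 3.71 to 5.35 on DAP12KO and 3.31 to 5.46 on UT arrays. In the single pair of Y2008, LPS minus PBS was −6.66 for its gene Ccr2 and 6.09 for its gene Plac8. The part of monocytes in the members' values was not tested. Tyrobp had 13.80, 13.83, 13.75 and 14.23 on DAP12KO arrays and 14.29 to 14.55 on UT arrays (difference −0.60 ± 0.13, SE, adjusted p = 0.48). Whether its probes lie in the deleted stretch is not given, so this bright signal neither bears out nor contradicts the genotype label. In bulk RNA, fewer cells of a type and less RNA per cell cannot be told apart.

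Nearly all of the measured chain gave signal above the threshold in the sorted fetal cells. Of the 9 members, 7 were at or above the threshold on each of the 18 arrays, each by its representative probe set, the one with the highest mean. Over all tested probe sets, 27.1% had a value under the threshold on 1 or more arrays, so staying above it is common. That share takes in lower probe sets of each gene, and the share over representative probe sets alone is not given here. Ly96 was above it on 17 arrays, with the PBS array of Y2008 at the lowest value of 2.19. Ticam1 was above it on 16 arrays, with the LPS array of Y2013 at 2.43 and the PBS array of Y2008 at 2.19 below it. The Traf6 probe set 1421376_at, not a representative, also fell below it, with 2.24 on the PBS array of Y2008 and 2.41 on DAP12KO array 2. Of the 19 probe sets, 15 entered the test. Of the other 4, a Tlr4 probe set (1430695_at) was at 2.19 on all arrays, and 3 of Traf6 (1446940_at, 1435350_at, 1443288_at) had means near the floor.

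**Figure D1:**
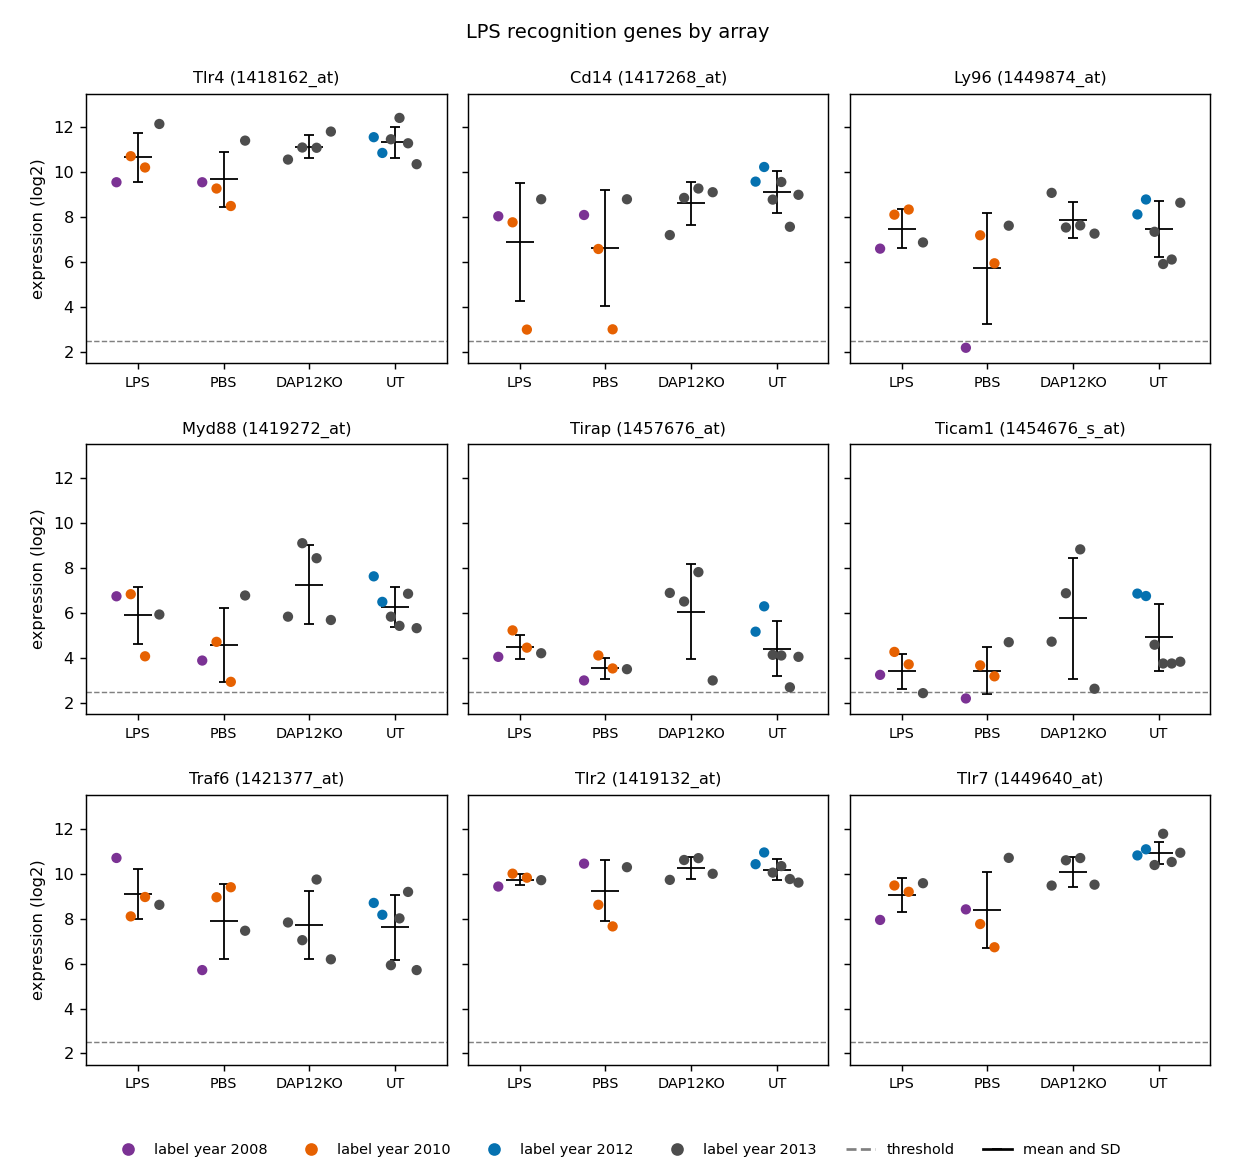
Log2 expression of the 9 measured members by array. Each panel is a gene, points are arrays coloured by label year, bars are the group mean and SD (n = 4, 4, 4 and 6) and the dashed line is the threshold of 2.49; no gene separates LPS from PBS arrays or DAP12KO from UT arrays completely.

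No member passed the test between LPS and PBS arrays. With limma and Benjamini-Hochberg adjustment over 22502 probe sets, 0 of the members' 15 probe sets passed at an adjusted p under 0.05 (lowest 0.369), and 2 had an unadjusted p under 0.05. The background is as sparse: 0.0267% of all tested probe sets passed, and 2773 had an unadjusted p under 0.05. The estimates lay above 0 for 13 of the 15, with a median of 0.49, against a median of −0.10 and 43.5% above 0 over all tested probe sets. The microglia markers had estimates above 0 for 15 of 15 in the same fit, with a median of 0.48, and the neuron markers for 1 of 15, with a median of −1.18. LPS and PBS arrays overlapped for all 15 probe sets, where 2.23% of all tested probe sets did not overlap. With array weights in limma, Tlr4 (1.46, adjusted p = 0.0193), Tlr2 (1.39, adjusted p = 0.0363) and Tlr7 (1.62, adjusted p = 0.0407) passed, as did 1970 probe sets in all. The weights were 1.57 to 2.88 for the arrays of Y2010, 0.275 for both of Y2008 and 0.652 for the LPS and PBS arrays of Y2013. This fit thus leans on Y2010.

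Tlr4, the signalling receptor for LPS, had values of 9.56 in Y2008, 10.71 and 10.21 in Y2010 and 12.15 in Y2013 on LPS arrays. On PBS arrays it had 9.56 in Y2008, 9.28 and 8.50 in Y2010 and 11.41 in Y2013. The LPS and PBS arrays of Y2008 were alike, those of Y2010 and Y2013 were higher under LPS, and the groups overlapped. The difference was 0.97 ± 0.43 (log2, SE; 95% interval 0.06 to 1.89; unadjusted p = 0.0384, adjusted p = 0.369, limma), and all 4 LPS arrays were above the PBS mean of their year, the one of Y2008 by 0.001. By year the difference was 0.001, 1.58 and 0.74. Without the PBS arrays of Y2010 it was 0.37, and with the mean of the neuron markers in the fit −0.14.

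The other Tlr4 probe sets gave another picture. Probe set 1418163_at had 10.11, 10.40, 9.93 and 7.91 on LPS arrays, in the order of years above, and 10.95, 8.75, 8.74 and 9.17 on PBS arrays. LPS arrays were the lower ones in Y2008 and Y2013 and the higher ones in Y2010 (within-year differences −0.84, 1.42 and −1.26), so that the fitted difference was 0.18 ± 0.50 (adjusted p = 0.945). Another probe set, 1442827_at, gave −0.004 ± 0.617 (log2, SE). Over the 18 arrays Pearson's r was 0.25 between 1418162_at and 1418163_at and 0.41 between 1418162_at and 1442827_at.

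The gap between the probe sets differed with the label year. On the log2 scale 1418163_at minus 1418162_at was 0.55 and 1.39 on the arrays of Y2008, −0.53 to 0.24 in Y2010, −1.19 and −0.07 in Y2012, and −4.24 to −0.14 in Y2013, the lowest being the LPS array. Tlr7 showed the same order, with 1422010_at minus 1449640_at at 2.18 and 2.38 in Y2008, 0.12 to 0.86 in Y2010, −0.66 and −0.09 in Y2012, and −1.94 to −0.19 in Y2013. The 3′ minus 5′ difference of the Gapdh control probe sets, a measure of RNA integrity and amplification, was highest in Y2010 and lowest in Y2013: 2.01 and 2.73 in Y2008, 2.23 to 3.33 in Y2010, 1.31 and 2.77 in Y2012 and 0.89 to 2.24 in Y2013. Its part in these gaps was not tested. The remaining Tlr7 probe set, 1419848_x_at, kept within −0.42 to 0.37 of 1449640_at on every array (r = 0.99).

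**Figure D2:**
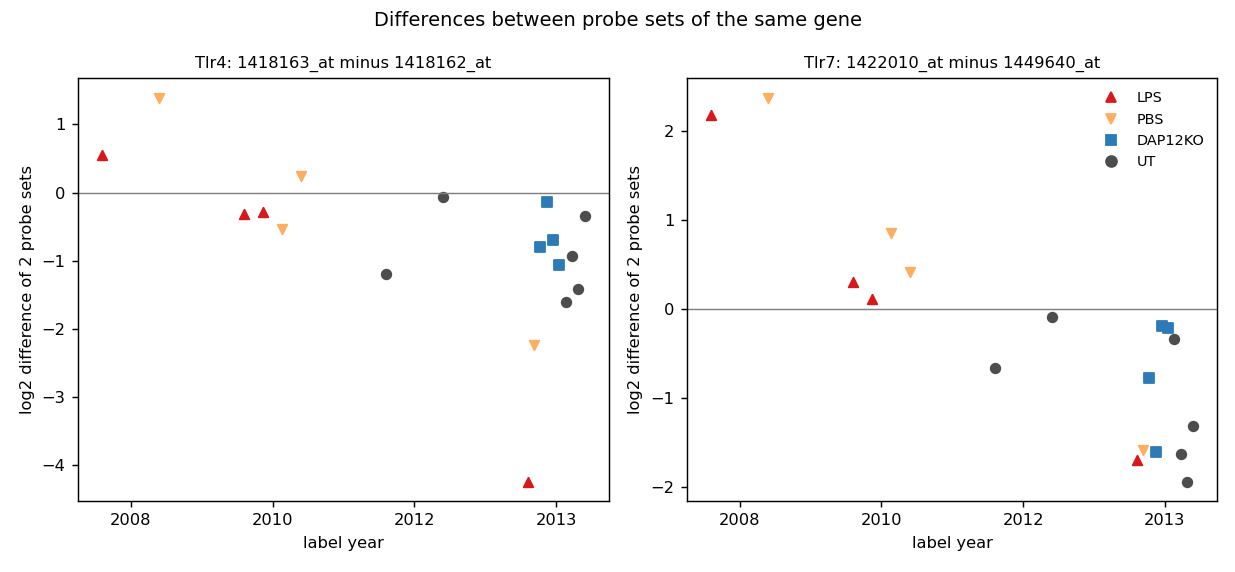
Log2 difference between 2 probe sets of Tlr4 (left) and of Tlr7 (right) on each array, by label year, with points spread sideways within a year and marked by group. The gaps are above 0 on the arrays of Y2008 and below 0 on those of Y2012 and Y2013, in whichever group.

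Cd14, the co-receptor that hands LPS to the TLR4 complex, had 8.04 in Y2008, 7.77 and 3.002 in Y2010 and 8.80 in Y2013 on LPS arrays. On PBS arrays it had 8.10, 6.59, 3.01 and 8.80 in that order. Array 2 of Y2010 was close to the floor in both groups. LPS minus PBS was −0.06 in Y2008 and 0.001 in Y2013, and array 1 of Y2010 was higher under LPS. The difference was 0.28 ± 0.93 (adjusted p = 0.958, limma), an estimate whose 95% interval of −1.70 to 2.26 leaves room for large changes either way. Leaving out LPS array 1 of Y2010 gave −0.74, and leaving out PBS array 2 of Y2010 gave −0.50.

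Ly96 encodes MD-2, the subunit of the TLR4 complex that binds the lipid part of LPS. Its LPS arrays had 6.60, 8.11, 8.34 and 6.88, and its PBS arrays 2.19, 7.20, 5.95 and 7.62. The lowest PBS array, that of Y2008, was at the floor, and in Y2013 the LPS array was the lower one. The difference was the largest of the 9 members at 1.74 ± 0.78 (95% interval 0.09 to 3.40; unadjusted p = 0.0406, adjusted p = 0.379, limma), with 3 of 4 LPS arrays above the PBS mean of their year. Within years it was 4.41, 1.66 and −0.75, and leaving out 1 array at a time moved it between 0.85 (without either array of Y2008) and 2.57 (without either array of Y2013).

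Among the adaptors, Myd88, which most Toll-like receptors use, had 6.74, 6.83, 4.07 and 5.93 on LPS arrays and 3.88, 4.71, 2.93 and 6.77 on PBS arrays. The LPS arrays were higher in Y2008 and Y2010 and lower in Y2013, by 2.86, 1.63 and −0.85, for a difference of 1.32 ± 0.91 (adjusted p = 0.589). Leaving out 1 array gave 0.70 (without LPS array 1 of Y2010) to 2.04 (without either array of Y2013). Tirap, which bridges TLR4 and TLR2 to MyD88, had 4.04, 5.22, 4.45 and 4.21 on LPS arrays and 2.99, 4.10, 3.53 and 3.49 on PBS arrays. Its difference of 0.95 ± 0.81 (adjusted p = 0.684) was steady over the years, at 1.05, 1.02 and 0.71, with all 4 LPS arrays above the PBS mean of their year, though LPS array 3 of Y2008 lay below PBS array 1 of Y2010. With Tlr4 (0.001 in Y2008) it was one of 2 members above 0 in all 3 years, by representative probe sets alone. The second Tirap probe set (1418685_at) gave 0.49 ± 0.66 (r = 0.52 with the first), and within years −0.20, 1.04 and 0.09. The other tested Tlr4 probe sets were below 0 in Y2008 and Y2013. Ticam1, the adaptor of the endosomal branch, had 3.24, 4.26, 3.71 and 2.43 on LPS arrays and 2.19, 3.66, 3.18 and 4.70 on PBS arrays. Its LPS arrays were higher in Y2008 and Y2010 and lower in Y2013, and the difference was −0.02 ± 0.98.

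Traf6, the ubiquitin ligase at which TLR signals converge on NF-kB, had 10.70, 8.10, 8.96 and 8.61 on LPS arrays and 5.71, 8.95, 9.39 and 7.46 on PBS arrays. The pair of Y2008 lay 4.99 apart, the largest gap of any member within a year, while LPS minus PBS was −0.64 in Y2010. The difference of 1.21 ± 0.99 (adjusted p = 0.666) rested on that pair, since leaving out either of its arrays gave −0.045. Its second tested probe set, 1421376_at, gave 0.17 ± 0.99 and hardly varied with the first (r = 0.08).

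Tlr2 had 9.43, 9.998, 9.82 and 9.71 on LPS arrays and 10.44, 8.61, 7.65 and 10.29 on PBS arrays. The LPS arrays stayed within a narrow band (SD 0.24, against 1.35 for PBS), below the PBS arrays of Y2008 and Y2013 and above both of Y2010. The difference was 0.49 ± 0.47 (adjusted p = 0.732) with within-year values of −1.02, 1.78 and −0.58. Tlr7 behaved alike over the years, with 7.94, 9.47, 9.19 and 9.57 on LPS arrays and 8.41, 7.76, 6.73 and 10.70 on PBS arrays. Its difference was 0.65 ± 0.55 (adjusted p = 0.685), and within years −0.47, 2.09 and −1.13. Without the PBS arrays of Y2010 both estimates turned negative, to −0.80 for Tlr2 and −0.80 for Tlr7.

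Over the 9 members the year Y2010 gave the highest count above 0. LPS minus PBS was above 0 for 6 members in Y2008 (median 1.05), 8 in Y2010 (median 1.58) and 4 in Y2013 (median −0.58), each of Y2008 and Y2013 being a single pair of arrays with no replicate. In the same years the microglia marker mean differed by −0.05, 1.03 and 0.04 and the neuron marker mean by −0.57, −1.66 and −0.72. The border macrophage marker mean (10 genes) differed by −1.39, 0.47 and −1.29, below 0 in Y2008 and Y2013 and above 0 in Y2010, as were Tlr2 and Tlr7. It ranged over 7.92 to 10.07 on LPS arrays and 9.29 to 10.11 on PBS arrays, and its part in the members' values was not tested. Without the PBS arrays of Y2010, which leaves the single pairs of Y2008 and Y2013 to set the estimate, Tlr4 (0.37), Ly96 (1.83), Traf6 (3.07), Myd88 (1.01) and Tirap (0.88) had estimates above 0. Those of Ly96 and Myd88 came from the pair of Y2008, their pair of Y2013 being below 0.

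**Figure D3:**
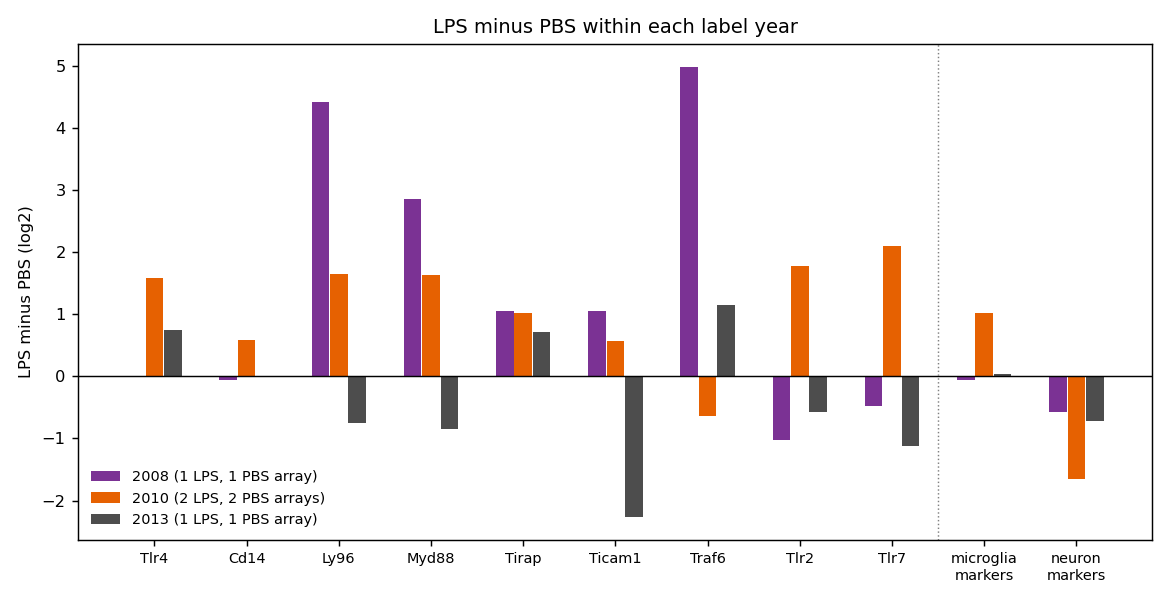
LPS minus PBS within each label year, in log2, for the 9 members and for the means of the microglia and neuron markers; bars for Y2008 and Y2013 are single pairs of arrays and those for Y2010 differences of means of 2 arrays each. Tlr2 and Tlr7 are above 0 in Y2010 alone, the year in which the microglia marker mean differs by 1.03 and the neuron marker mean by −1.66.

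Loss of DAP12 gave no member past the test either. Of 15 probe sets 0 passed (limma, lowest adjusted p 0.801) and 1 had an unadjusted p under 0.05. Of all tested probe sets 0% passed, and 1234 had an unadjusted p under 0.05. The estimates were above 0 for 8 of 15 with a median of 0.16, against a median of 0.02 and 51.3% above 0 over all tested probe sets. DAP12KO and UT arrays overlapped for all 15, and 0.84% of all tested probe sets did not overlap. All DAP12KO arrays are of Y2013, so with the year in the fit the UT arrays of that year set each difference.

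For the receptor complex the groups overlapped on every probe set. Tlr4 had 10.56, 11.10, 11.09 and 11.81 on DAP12KO arrays, and on UT arrays a lowest value of 10.36, a median of 11.38 and a highest of 12.42. All DAP12KO arrays lay inside the UT range, and the difference of −0.24 ± 0.43 had a 95% interval of −1.16 to 0.67 (adjusted p = 0.983, limma). Probe set 1418163_at gave 0.16 ± 0.50, with 9.77 to 10.97 on DAP12KO arrays and 9.86 to 11.50 on UT arrays. Probe set 1442827_at gave −1.01 ± 0.62 (adjusted p = 0.92), and its 4 DAP12KO arrays (6.75 to 7.78) were all below the UT mean of Y2013, 8.50. Cd14 had 7.21, 8.86, 9.28 and 9.11 on DAP12KO arrays and 7.58, 9.28 and 10.24 as lowest, median and highest on UT arrays. One DAP12KO array was below all UT arrays, and the difference was −0.12 ± 0.93 (95% interval −2.09 to 1.86). Ly96 had 9.08, 7.54, 7.64 and 7.27 on DAP12KO arrays and 5.92, 7.74 and 8.79 as lowest, median and highest on UT arrays. The 4 DAP12KO arrays were above the UT mean of Y2013, at 7.01, and the difference was 0.88 ± 0.78 (adjusted p = 0.928).

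The adaptors had the highest estimates in the knockout, with wide scatter. Tirap had 6.89, 6.51, 7.81 and 2.99 on DAP12KO arrays, and on UT arrays 2.69, 4.12 and 6.29 as lowest, median and highest. Arrays 1, 2 and 4 of the knockout were above every UT array, while array 5 was near the bottom of the UT range. The difference was 2.31 ± 0.81 (95% interval 0.60 to 4.02; unadjusted p = 0.0115, adjusted p = 0.801, limma), and leaving out 1 array at a time gave 1.72 to 3.33. The other Tirap probe set gave 0.55 ± 0.66. Ticam1 had 4.72, 6.87, 8.83 and 2.62 on DAP12KO arrays and 3.75, 4.21 and 6.86 as lowest, median and highest on UT arrays. The UT arrays of Y2012 (6.86 and 6.75) were higher than those of Y2013 (3.75 to 4.58), array 5 of the knockout was the lowest of all 10, and the difference was 1.78 ± 0.98 (adjusted p = 0.92). Without knockout array 4 it was 0.76, and without array 5 it was 2.83. Myd88 had 5.83, 9.10, 8.43 and 5.68 on DAP12KO arrays and 5.32, 6.16 and 7.62 on UT arrays. Knockout arrays 2 and 4 were above all UT arrays and the other knockout arrays were within the UT range, for a difference of 1.41 ± 0.91 (adjusted p = 0.92).

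Tirap and Ticam1 were the members that varied most alike over the 18 arrays (Pearson's r = 0.82 between representative probe sets, a description, since the pair was chosen on it and the arrays share year and group). The RefSeq promoter table (build GRCm38.p6) held entries for 6 of the 10 members, among them this pair, and the 250 bases before the start are shown 5′ to 3′ for both, for Tirap the first of 2 overlapping entries with different starts, to let their sequences be read beside their shared pattern. Both strands were searched for the letters GGGNNNNNCC (a loose form of the NF-kB site), GAGGAA (the core bound by PU.1, a myeloid factor) and GAAANNGAAA (a core of the interferon response element), and matches are in capitals. The stretches are chr9:35199966-35200215 (minus strand) for Tirap and chr17:56276768-56277017 (minus strand) for Ticam1.
Tirap: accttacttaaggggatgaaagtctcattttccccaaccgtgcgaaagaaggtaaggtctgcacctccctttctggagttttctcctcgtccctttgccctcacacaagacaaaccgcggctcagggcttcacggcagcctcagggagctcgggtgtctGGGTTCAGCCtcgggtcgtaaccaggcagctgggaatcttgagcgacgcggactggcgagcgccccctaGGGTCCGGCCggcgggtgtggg
Ticam1: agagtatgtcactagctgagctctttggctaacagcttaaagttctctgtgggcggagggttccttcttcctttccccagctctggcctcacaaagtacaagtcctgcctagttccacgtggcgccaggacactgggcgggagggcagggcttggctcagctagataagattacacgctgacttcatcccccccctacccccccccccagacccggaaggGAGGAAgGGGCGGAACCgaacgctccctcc

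Tirap held 2 matches of the NF-kB letters, and Ticam1 held 1, with 1 match of GAGGAA just upstream and no overlap between them. Neither held the interferon letters. Of 32851 promoters of that length, 45.8% held the NF-kB letters, 23.3% GAGGAA and 2.98% the interferon letters, so the matches are common ones and describe letters only.

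Traf6 had 7.83, 7.04, 9.74 and 6.19 on DAP12KO arrays and 5.71, 8.09 and 9.19 as lowest, median and highest on UT arrays. The groups overlapped throughout (0.49 ± 0.99), and its second probe set pointed the other way (−1.92 ± 0.99, unadjusted p = 0.0704, adjusted p = 0.92, limma). Tlr2 had 9.72, 10.61, 10.69 and 9.99 on DAP12KO arrays and 9.60, 10.19 and 10.94 on UT arrays. All 4 knockout arrays lay inside the UT range (0.32 ± 0.47, 95% interval −0.68 to 1.32). Tlr7 had 9.47, 10.59, 10.69 and 9.51 on DAP12KO arrays and 10.38, 10.87 and 11.77 on UT arrays. Arrays 1 and 5 of the knockout were below all UT arrays and all 4 were below the UT mean of Y2013, 10.90, for a difference of −0.83 ± 0.55 (adjusted p = 0.92), and 1419848_x_at gave −0.80 ± 0.47. Border macrophage markers averaged 0.83 lower on DAP12KO arrays than on UT arrays of Y2013 (a difference of −0.83 over 10 genes), with 7.83 to 8.59 on DAP12KO arrays and 8.01 to 9.99 on all UT arrays. Their part in the Tlr7 values was not tested.

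**Figure D4:**
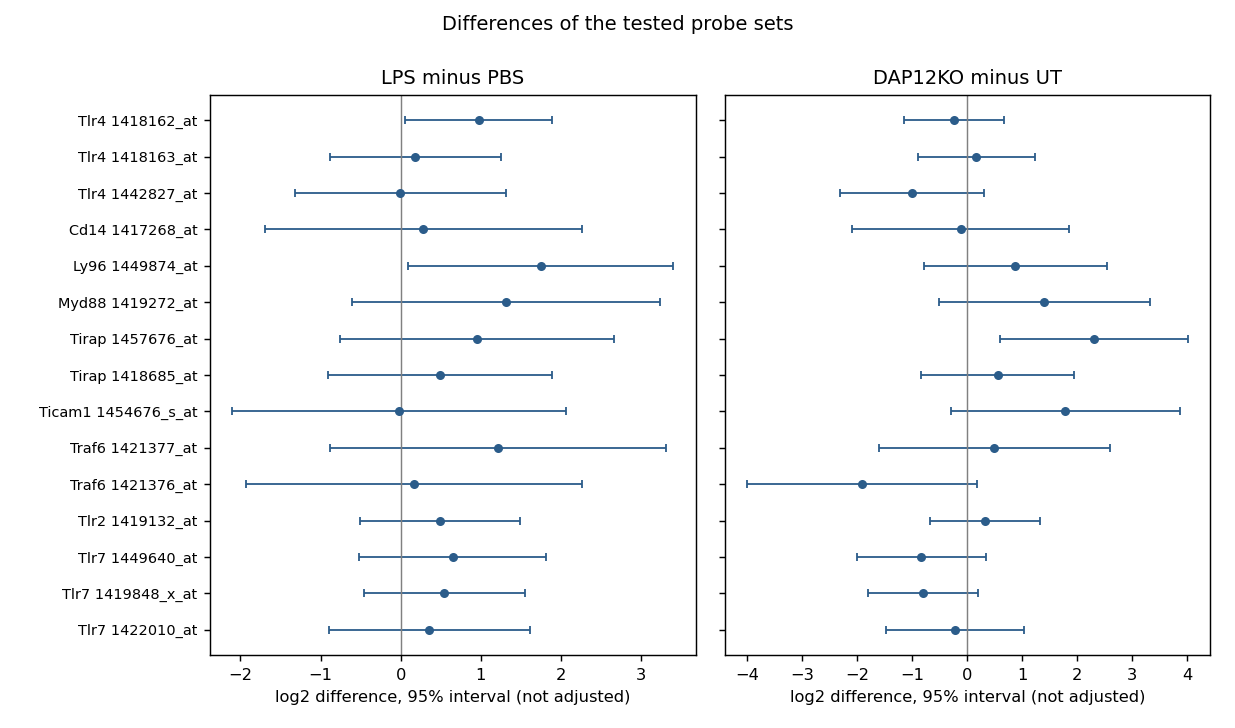
Log2 differences of the 15 tested probe sets, LPS minus PBS (left) and DAP12KO minus UT (right), with 95% intervals of the limma fit that are not adjusted for the number of probe sets. Intervals miss 0 for Tlr4 1418162_at and Ly96 on the left and for Tirap 1457676_at on the right, and none of these passed after adjustment.

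The 2 responses did not differ past the test for any member. The difference of the responses, LPS minus PBS less DAP12KO minus UT, had 0 of 15 probe sets past the threshold and 0 with an unadjusted p under 0.05 (limma, lowest adjusted p 0.623), where 0.00444% of all tested probe sets passed. Its largest values among representative probe sets were −1.81 ± 1.39 for Ticam1 and 1.48 ± 0.78 for Tlr7.

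Genes whose levels varied most like a member over the 18 arrays were read off among 11628 other genes, as a description. Tlr4 was closest to Fermt3 (r = 0.92), Xbp1 (0.90) and Shisa5 (0.90), and Cd14 to Rpl27a (0.93), Cd9 (0.92) and Pop5 (0.92). Ly96 was closest to Ifnar1 (0.89), Marchf7 (0.855) and Anapc16 (0.85), and Tlr7 to Gpsm3 (0.92), Ctsh (0.92) and Ighm (0.91). Among members, Tlr4 and Tlr7 had r = 0.81, and Tlr2 and Tlr7 r = 0.77. These arrays share label years and treatments, which such values take in.

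The rest of the family was measured beside the members. Of 9 other Toll-like receptors 8 had a probe set and 5 were tested: Tlr5, Tlr8 and Tlr12 were near the floor. None of the 5 passed in either comparison (median estimates 1.26 under LPS and −0.15 in the knockout). Tlr1, which pairs with TLR2, had 11.29, 10.40, 9.44 and 11.998 on LPS arrays and 9.21, 9.01, 5.91 and 10.96 on PBS arrays. It was higher under LPS in every year, at a difference of 2.01 ± 0.53 (adjusted p = 0.168, limma). Tlr3, the receptor for double-stranded RNA, had 11.26, 10.51, 10.56 and 10.01 on LPS arrays and 7.80, 9.52, 8.41 and 10.20 on PBS arrays. The LPS arrays were higher in Y2008 and Y2010 and lower in Y2013, at 1.60 ± 0.55 (adjusted p = 0.259). In the knockout the lowest p values were those of Tlr6, which also pairs with TLR2 (−0.74 ± 0.88), and Tlr13, a receptor for bacterial ribosomal RNA (0.24 ± 0.42).

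**Figure D5:**
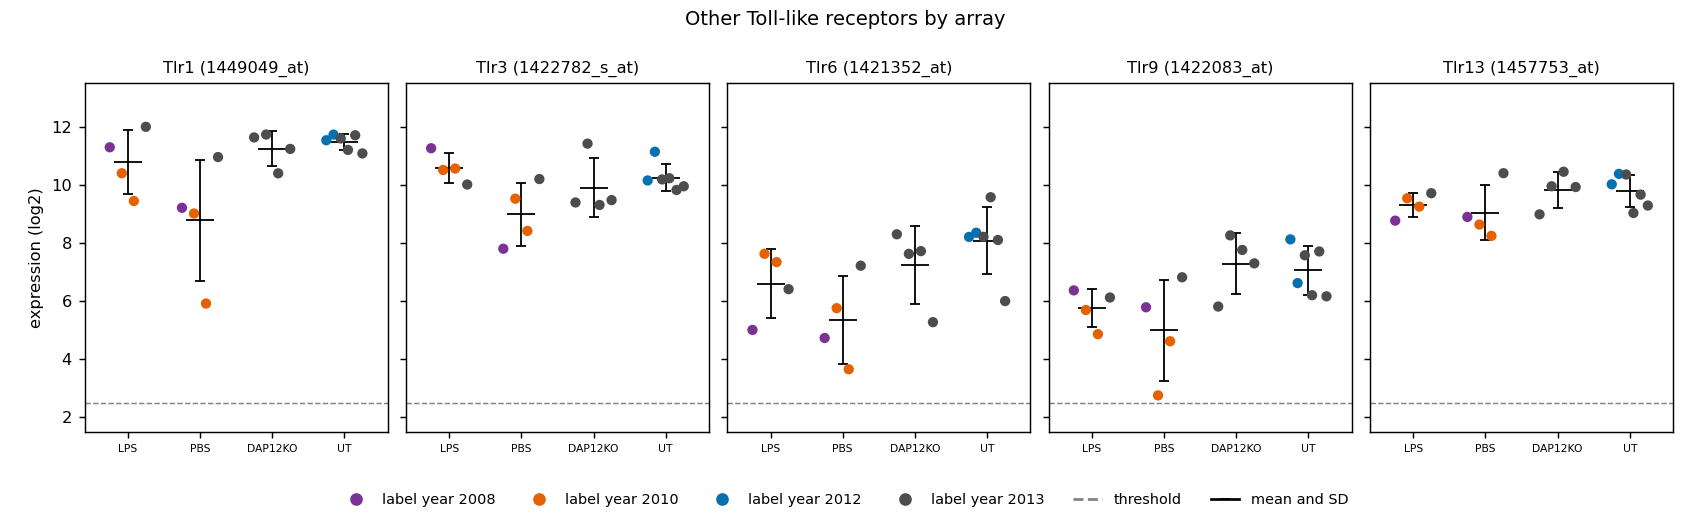
Log2 expression of the 5 other Toll-like receptors that were tested, by array, coloured by label year with group mean and SD and the threshold of 2.49. The PBS arrays of Y2010 include the lowest values of Tlr1, Tlr6, Tlr9 and Tlr13.

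Co-receptors, carriers and chaperones had 9 of 10 genes tested, and none passed in either comparison (Tril near the floor, medians 0.13 under LPS and 0.06 in the knockout). Under LPS the lowest p values were those of Itgam, the CD11b chain of complement receptor 3 (2.25 ± 0.43, adjusted p = 0.0743), and Cd180, a TLR4 homologue (0.85 ± 0.28, adjusted p = 0.232). Itgam had 9.91, 8.93, 9.16 and 11.35 on LPS arrays and 7.71, 5.34, 6.69 and 10.58 on PBS arrays, higher under LPS in each year. In the knockout they were Cd36, a scavenger receptor that assists TLR2 (−2.83 ± 0.99), and Lbp, the LPS carrier of serum (1.38 ± 0.82). Lbp was at or above the threshold on only 2 of 4 DAP12KO arrays and 1 of 6 UT arrays.

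Of 21 downstream adaptors, kinases and transcription factors, 16 were tested and none passed (medians −0.03 under LPS and −0.02 in the knockout). The lowest p values were those of Ikbkg, the regulatory subunit of the IKK complex (−1.96 ± 0.96), and Irf8, a myeloid transcription factor (0.75 ± 0.40), under LPS. In the knockout they were those of Irf7, a driver of interferon genes (1.55 ± 0.78), and Ikbkg (−1.72 ± 0.96). Irf7 was at or above the threshold on only 2 of 4 DAP12KO arrays and 1 of 6 UT arrays. Of 14 inhibitors, 12 were tested and none passed (medians 0.07 and −0.09 in the same order): Sarm1 (−1.23 ± 0.65) and Irak3 (−0.75 ± 0.51) had the lowest p values under LPS, and Cyld (−1.95 ± 0.91) and Nfkbia (0.79 ± 0.40) in the knockout. Socs1 was near the floor. Sarm1 was at or above the threshold on only 2 of 4 LPS arrays and 2 of 4 PBS arrays, and Irak3 on 0 of 4 LPS arrays and 2 of 4 PBS arrays. Of 9 cytosolic sensors, 6 were tested and none passed (medians 0.26 and 0.60). Pycard (0.57 ± 0.28) and Nlrp3 (1.28 ± 0.65), parts of the inflammasome, had the lowest p values under LPS, and the caspases Casp4 (2.26 ± 1.00) and Casp1 (1.05 ± 0.50) in the knockout.

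Of 15 targets of the pathway 10 were tested, and none passed, with estimates above 0 for 10 of 10 under LPS (median 1.31) and for 9 of 10 in the knockout (median 1.11), against medians of −0.10 and 0.02 over all tested probe sets. Under LPS the microglia markers were also above 0 for 15 of 15 (median 0.48) and the neuron markers for 1 of 15 (median −1.18), and their part in the targets' values was not tested. Il6, Il10, Ptgs2, Nos2 and Saa3 were near the floor. Ifnb1, counted above 0 in both comparisons, was tested only because of its DAP12KO arrays. Its means were 2.36 on LPS, 2.19 on PBS, 4.58 on DAP12KO and 2.59 on UT arrays. It was at or above the threshold on 1 of 4 LPS, 0 of 4 PBS, 2 of 4 DAP12KO and 2 of 6 UT arrays, so its estimates add little to either count. The chemokines Ccl4 (1.51 ± 0.52) and Ccl5 (2.84 ± 1.05) had the lowest p values under LPS, and the cytokine Tnf (2.69 ± 0.89) and the chemokine Cxcl10 (3.24 ± 1.19) in the knockout. Within Y2008, Y2010 and Y2013, LPS minus PBS was 1.24, 2.30 and 0.21 for Ccl4 and 7.20, 1.51 and 1.15 for Ccl5. The estimate of Ccl5 thus leaned on the single pair of Y2008, with 10.53 on the LPS array and 3.32 on the PBS array. Tnf had 2.76, 7.09, 7.03 and 6.32 on DAP12KO arrays, and 4.58 and 6.24 on the UT arrays of Y2012 and 2.69 to 3.51 on those of Y2013. Array 1 of the knockout was near the low UT arrays and the other 3 were above all UT arrays. Cxcl10 had 10.69, 13.80, 12.20 and 10.10 on DAP12KO arrays. On UT arrays it had 10.08 and 10.77 in Y2012 and 9.59, 4.08, 8.40 and 11.74 in Y2013. The groups overlapped, with UT array 6 of Y2013 above knockout arrays 1 and 5, and the low UT array 2 of Y2013 raised the difference.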

How the data were processed

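RNA of sorted microglia on 18 Affymetrix mouse genome arrays was analysed. The deposited log2 values were made by the authors with RMA, per the submitters' processing notes; no version is named there. Amplification used Ovation Pico and Encore kits of NuGEN, per the labels' protocols. The part of amplification and of label year in the gaps between probe sets of a gene was not tested. Of 45101 probe sets, 34945 name 1 gene in the platform annotation, 932 name several and 9211 none, and RefSeq's gene table held the Entrez identifiers of 34741 (0 symbols updated). No array was a copy of another (closest pair r = 0.98).

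Those with a mean at or above the 40th percentile (22502) were fitted with limma 3.58.1 in R 4.3.3 (lmFit, and eBayes with a variance prior that follows intensity; group means plus label year as a fixed term; 11 residual degrees of freedom), two-sided, with Benjamini-Hochberg adjustment over all of them. Of these, 27.1% have a value under the threshold on 1 or more arrays. Errors are standard errors of the fit, or SD where named. The number of arrays limits the precision, and p-values measure the spread between pools of embryos, each from a dam. All probe sets of the members are named, with the highest mean as representative. For other lists, those past the threshold or else the 2 lowest p values are named, and for Tlr4, Cd14, Ly96 and Tlr7 the 3 genes of highest r. Members and lists were chosen with earlier results of these data known. The code was tested on simulated data. Figures were drawn with matplotlib 3.10.9.

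The alternatives were other year terms, filters, normalizations, weights, a neuron covariate, a replicate block and leaving out arrays. Same-numbered arrays of Y2010 deviated alike (r = 0.52 for both pairs). With 2 arrays per group in that year their deviations mirror each other, so this is 1 value. Same-numbered arrays of DAP12KO and UT did not deviate alike (r = −0.01 and 0.002). The numbers were not taken as pairs in the main fit, whose p-values treat LPS and PBS arrays as unpaired. The replicate block among the alternatives joins same-numbered arrays.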

Additional observations from a re-analysis of the deposited data

Results flagged for a closer look

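One array stood far from the others of its group: the Tlr4 probe set 1442827_at had 6.75 on DAP12KO array 1 of Y2013, where the nearest of the other 3 was 7.71 and they reached up to 7.78. Among 60 combinations of a tested probe set and a group it was the only such array. Chance alone marks about 1 in 20 groups.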

How the results depend on the processing

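The count of probe sets past the threshold for LPS minus PBS, 6 as reported, was 1 with no year term, 25 with a replicate block, 0 with only both groups in the fit, 0 with the filter at the 60th percentile, 11 with 1 probe set per gene, 1 with arrays centred on their median, 11 after quantile normalization, 1970 with array weights and 1 with the neuron covariate. It was 21 without the 2 PBS arrays of Y2010 and 11 without the 4 arrays of Y2010, both chosen after seeing the data, and 1 to 243 leaving out 1 array at a time: 243 and 233 without the LPS or PBS array of Y2013, 141 and 144 without that of Y2008, and 1 without either LPS or either PBS array of Y2010. For DAP12KO minus UT (0 as reported) it was 0 to 5 leaving out 1 array (5 without DAP12KO array 5, 2 without DAP12KO array 4 or UT array 1 of Y2013, 1 without DAP12KO array 1 or UT array 3 of Y2013) and 0 otherwise. For the difference of the responses (1 as reported) it was 2 with no filter, 0 at the 60th percentile, 0 with 1 probe set per gene, 55 with array weights, 4 and 4 in the fits without PBS arrays or all arrays of Y2010, and 0 to 32 leaving out 1 array, with 32 without either array of Y2013 under LPS or PBS, 6 and 5 without those of Y2008 and 2 without DAP12KO array 4. The replicate block turned no member past the threshold; array weights did so for Tlr4 (1.46, adjusted p = 0.0193), Tlr2 (1.39, 0.0363) and Tlr7 (1.62, 0.0407) under LPS, limma in each case. In the knockout none of 249 alternative values of the 11 followed probe sets passed.

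Some estimates for LPS minus PBS changed sign. With the neuron covariate Tlr4 was −0.14, its probe set 1418163_at −1.34, Cd14 −1.09, Myd88 −0.049, Tirap −0.36, Tlr2 −0.99, Tlr7 −1.27 and its probe set 1422010_at −1.41. Without the PBS arrays of Y2010, or all 4 arrays of that year, 1418163_at was −1.05, Cd14 −0.028, Tlr2 −0.80, Tlr7 −0.80 and 1422010_at −0.95. Ticam1 was 0.0030 with the replicate block, 0.22 centred, 0.26 after quantile normalization and 0.29 with array weights, and −2.42 with the neuron covariate, the same sign as reported. Traf6 was −0.19 with array weights. Leaving out 1 array gave −0.74 to 1.17 for Cd14, −0.38 to 0.73 for Ticam1, −0.045 to 1.76 for Traf6, −0.16 to 0.66 for 1418163_at and −0.20 to 0.89 for 1422010_at. Ly96 alone of the followed values kept its sign in every setting. In the knockout the neuron covariate gave −0.34 for 1418163_at and −0.17 for Tlr2, and leaving out 1 array gave −0.58 to 0.10 for Tlr4, −0.50 to 0.35 for Cd14, −0.19 to 1.15 for Traf6, −0.0048 to 0.56 for 1418163_at and −0.60 to 4.2e-05 for 1422010_at. The cause was not tested. Values at or near the floor on 1 or more arrays limit Ticam1 and Ly96. Low values just above the threshold also limit Cd14 (3.002 and 3.01 on array 2 of Y2010 under LPS and PBS), Myd88 (lowest 2.93) and Tirap (lowest 2.69).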

Other observations

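A pair of chaperones of Toll-like receptors differed between label years, chosen here after their values were seen. The arrays of Y2008 and Y2010 are all LPS or PBS and those of Y2012 all UT, so year and group cannot be fully told apart. Unc93b1, which carries TLR3, TLR7 and TLR9 to endosomes, had 4.84 to 8.14 on the 4 arrays of Y2010 and 7.77 and 11.48 on the arrays of Y2008. It had 11.94 and 12.50 on the arrays of Y2012 and 11.99 to 13.34 on the 10 arrays of Y2013, so that the arrays of Y2010 and Y2013 did not overlap. Cnpy3, a chaperone that TLR4 and other family members need to reach the cell surface, had 9.69 and 10.43 in Y2008, 5.66 to 7.39 in Y2010, 10.04 and 11.30 in Y2012, and 9.36 to 11.73 in Y2013. Within years LPS and PBS arrays had no common direction for either gene: Unc93b1 had 7.77 on the LPS array and 11.48 on the PBS array of Y2008, and 8.14 and 7.87 on the LPS arrays and 4.84 and 6.73 on the PBS arrays of Y2010.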
